A study of Arabidopsis thaliana with 6 samples.

Results

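The chloroplast makes part of its own proteins on ribosomes of a bacterial type. Their RNAs and some of their proteins are encoded in the plastid genome, while most of their proteins, and the factors that start, extend, end and reset translation, are encoded in the nucleus, made in the cytosol and imported. Loss of many of these nuclear genes stops embryos or leaves seedlings pale. Core subunits of the photosystems and of Rubisco are among the proteins translated in the plastid. The 48 nuclear genes described here are 24 for proteins of the large (50S) subunit, 9 for proteins of the small (30S) subunit, 6 for plastid-specific ribosomal proteins and 9 for plastid translation factors. They were taken from a fixed list of loci, matched to the array through the transcript accession of each probe, and are 48 of the 22682 genes tested.

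Whole seedlings of Arabidopsis thaliana, in the Col-0 background, gave total RNA for 6 Agilent arrays read in 1 colour, 3 of pgp1-2 and 3 of the wild type (WT). The pgp1-2 mutant is short of phosphatidylglycerol, a membrane lipid of thylakoids, and the study compared its transcript levels with those of WT. The pgp1-2 seedlings were 21 d old, after 14 d in light of 30 µmol m-2 s-1 and a further 7 d in dimmer light of 15 µmol m-2 s-1. The WT seedlings spent 7 d and then 7 d in the same 2 lights and were 14 d old. All seedlings were kept in continuous light on 0.8% agar with 3% sucrose. Genotype and age therefore cannot be told apart in any difference below. The labels do not say whether samples came from separate cultures, so that p-values measure only the spread between these samples, which may be technical.

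Signals are log2 values relative to the 75th percentile of the processed signals on that array, and each difference is pgp1-2 minus WT on that log2 scale. A gene is described as called where the limma adjusted p is under 0.05. The single probe of PGP1 (AT2G39290), which encodes a phosphatidylglycerophosphate synthase and is the mutated gene, was well above background on 0 of 3 pgp1-2 arrays and on 3 of 3 WT arrays; WT was at least 226-fold brighter, or at least 141-fold without pgp1-2 replicate 1. Slide 1 held 1 array of each group and slide 2 held 2 of each. That percentile was 2620 to 3653 on the linear scale. In the whole comparison 52.4% of genes were called. Of the called genes, 53.2% were higher in pgp1-2, a split that was 42.2% after normexp background correction, 76.2% when arrays were levelled on their spike-in probes, 83.3% with slides as a block besides, and 45.8% to 55.3% under median and quantile scaling. The spike-in scaling moved the median of all genes by 0.41, normexp by -0.12 and omitting the filter on dim probes by -0.12, so that changes are relative to the 75th percentile.

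All 48 genes had a probe well above background on all 6 arrays. Their signal was lower in pgp1-2 at 48 of 48, and 45 were called lower by limma, against 24.5% of all genes called lower; none was called higher, against 27.9% of all genes. The median difference was -0.65, the range -1.03 to -0.06, and the median of all genes tested was 0.034. At 46 genes every pgp1-2 array was below every WT array, which held for 29.6% of all genes; groups without overlap in either direction made up 64.2% of all genes. A fall of at least 0.5 on the log2 scale that was also called was seen at 40 of the 48, against 16.4% of all genes, but a called fall of at least 1 at a single gene, against 8.05% of all genes. The falls were many and of similar, modest size: the standard deviation of the difference was 0.18 over the 48 genes and 0.89 over all genes tested. The 5th and 95th percentiles of all genes were at -1.35 and 1.29.

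The members also moved together from array to array. Relative to the WT mean of each gene, the median of the 48 genes was -0.69, -0.78 and -0.48 on pgp1-2 arrays 1, 2 and 3, and 0.038, 0.042 and -0.082 on WT arrays 1, 2 and 3. The pgp1-2 replicate 3 array was the highest of the 3 mutant arrays at 48 of 48 genes, and the WT replicate 3 array was the lowest of the 3 WT arrays at 45 of 48. Arrays of 1 group thus differed from each other in the same sense at nearly all members. The difference between the group means was larger than the wider of the ranges within groups at 45 members. The exceptions were AT2G24060, RRF and AT3G08740. That count was made for the members only, so its share over all genes is not known. Groups without overlap, a weaker criterion, made up 64.2% of all genes. Within-group standard deviations of the members had a median of 0.13, near the 0.12 of all genes. The order of the replicate 3 arrays was not particular to the members, and its share over all genes was not counted. By list median, pgp1-2 replicate 3 was also the highest mutant array for other plastid translation (-0.25) and plastid ribosome assembly (0.25). WT replicate 3 was the lowest WT array there (-0.12 and -0.075). In the mitochondrial and cytosolic ribosomal protein lists, pgp1-2 replicate 3 was instead the lowest mutant array (0.21 and 0.058).

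**Figure D1:**
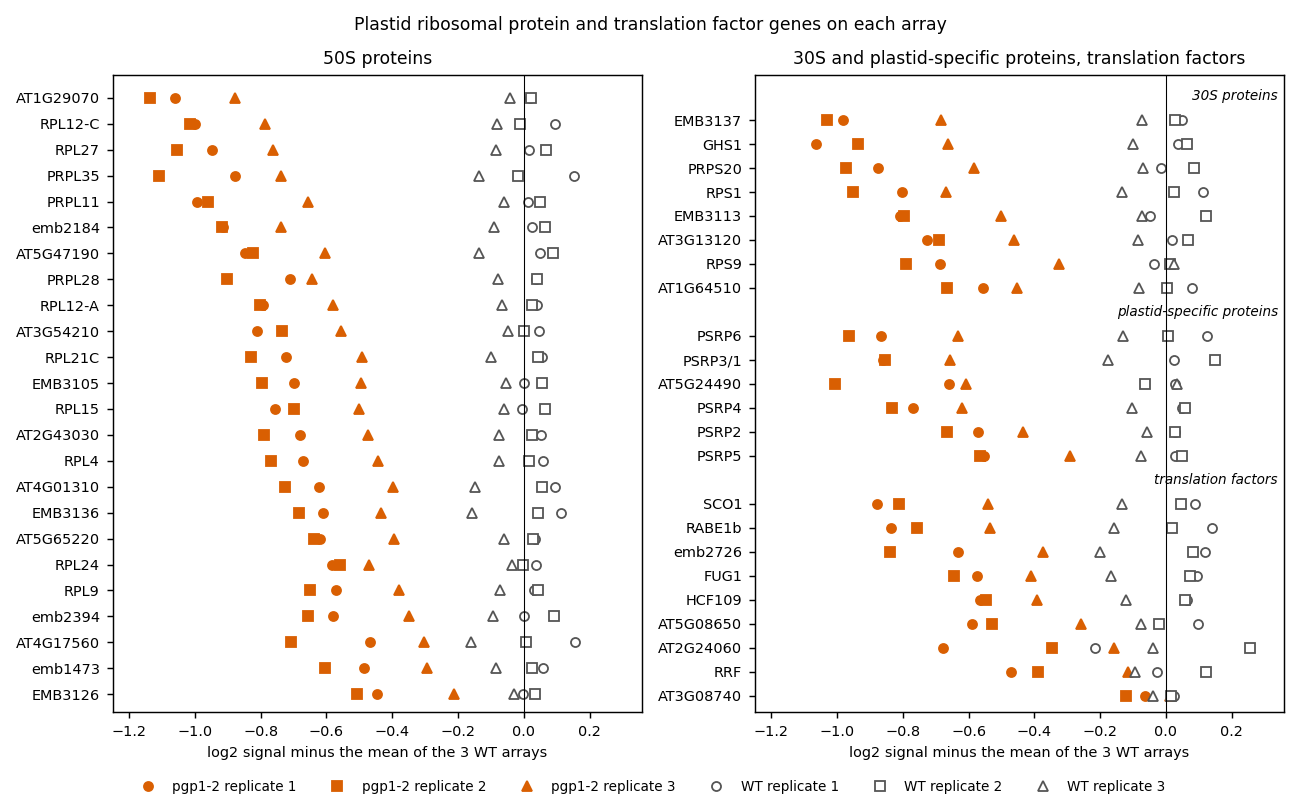
Signal of 47 of the 48 genes on each array, as log2 signal minus the mean of that gene's 3 WT arrays (horizontal axis), with 1 row per gene; filled orange symbols are pgp1-2 arrays, open grey symbols WT arrays, and the symbol shape gives the replicate number. The orange symbols lie left of all grey ones at 45 of these genes, pgp1-2 replicate 3 is the rightmost orange symbol in every row, and AT3G08740 and AT2G24060 in the bottom rows are the genes where the groups overlap.

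The large subunit holds the peptidyl transferase centre. All 24 genes for its proteins fell in pgp1-2, with a median of -0.66, so that the median signal fell by 36.6%, and with limma adjusted p from 0.000366 to 0.0224. The gene with the largest fall was AT1G29070, listed among the 50S proteins and without a symbol in the gene table. It had log2 signals of 3.18, 3.11 and 3.37 on the pgp1-2 arrays and of 4.26, 4.27 and 4.20 on the WT arrays, which made -1.03 (SE 0.085, limma adjusted p = 0.000366). The gap between the groups was wider than the spread among the arrays of either, and AT1G29070 was the only one of the 48 with a called fall of at least 1.

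RPL27, whose E. coli counterpart reaches close to the peptidyl transferase centre, had signals of 3.20, 3.09 and 3.38 in pgp1-2 and of 4.16, 4.21 and 4.06 in WT, a difference of -0.92 (SE 0.096, limma adjusted p = 0.000729). PRPL35, a small protein of the same subunit, had 3.44, 3.20 and 3.58 in pgp1-2 and 4.47, 4.30 and 4.18 in WT, a difference of -0.91 (SE 0.12, limma adjusted p = 0.00180). Both genes were separated by more than the spread within either group, although PRPL35 varied more among arrays than RPL27. The genes PRPL11 (-0.87), emb2184 (-0.86) and PRPL28 (-0.75) followed. PRPL11 belongs to the site where elongation factors hydrolyse GTP, by its E. coli counterpart, and emb2184 encodes the plastid L31 protein.

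The L12 proteins form the mobile stalk to which elongation factors bind, and RPL12-A and RPL12-C are a pair of near copies on chromosome 3, so that a probe of one may take signal of the other and their single values are uncertain. RPL12-C had 2.31, 2.29 and 2.52 in pgp1-2 and 3.40, 3.29 and 3.22 in WT, a difference of -0.93 (SE 0.091, limma adjusted p = 0.000593). RPL12-A had 5.34, 5.33 and 5.55 in pgp1-2 and 6.17, 6.16 and 6.07 in WT, a difference of -0.73 (SE 0.085, limma adjusted p = 0.00106). The 5 probes of RPL12-A gave differences between -0.91 and -0.73, and both probes of RPL12-C gave -0.93 and -0.90, so the probe chosen for RPL12-A was the one with the smallest fall. The ratio of RPL12-C to RPL12-A signal within an array was lower in pgp1-2 than in WT by 0.21 on the log2 scale, with all 3 mutant arrays below all 3 WT arrays; the exact permutation test gave p = 0.1 (two-sided, n = 3 each), the smallest value that 20 splits of the arrays allow, and 0.1 after adjustment over the 2 pairs compared. The size of this shift depended on the probes: over the 10 pairings of their probes it ran from -0.21 to 0.013, with the mean of each gene's probes it was -0.074, and under quantile normalization, where RPL12-A was at -0.055 and not called (limma adjusted p = 0.553), it was -0.74. RPL12-B, a further copy that lies between them in the gene order, was well above background on 0 pgp1-2 arrays and 2 WT arrays and was not tested.

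The other pair was AT5G47190 and AT4G17560, likewise listed as 50S proteins. AT5G47190 had 2.97, 3.00 and 3.22 in pgp1-2 and 3.87, 3.91 and 3.68 in WT, a difference of -0.76 (limma adjusted p = 0.00165). AT4G17560 had 3.01, 2.77 and 3.17 in pgp1-2 and 3.63, 3.48 and 3.31 in WT, a difference of -0.49 (limma adjusted p = 0.0224). The call of AT4G17560 was the least firm in the large subunit: its adjusted p rose to between 0.0519 and 0.0676 when pgp1-2 replicate 1, pgp1-2 replicate 2, WT replicate 1 or WT replicate 2 was left out. The ratio of AT5G47190 to AT4G17560 within an array was lower in pgp1-2 by 0.27 on the log2 scale, with all mutant arrays below all WT arrays (exact permutation p = 0.1, two-sided, n = 3 each, adjusted over 2 pairs 0.1).

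The smallest falls of the large subunit were those of EMB3126 and emb1473. EMB3126, also named PRPL1, encodes the protein that in E. coli forms the stalk beside the exit site of the tRNA. It had 3.79, 3.73 and 4.03 in pgp1-2 and 4.24, 4.27 and 4.21 in WT, a difference of -0.39 (SE 0.092, limma adjusted p = 0.0145). Its other probes gave -0.50 and -0.65, and without pgp1-2 replicate 1 or WT replicate 2 its adjusted p was 0.0504 and 0.0530. The gene emb1473, for the plastid L13 protein, had 3.96, 3.85 and 4.15 in pgp1-2 and 4.51, 4.47 and 4.37 in WT, a difference of -0.46 (limma adjusted p = 0.00926). The 12 large subunit genes not yet given had differences between -0.70 and -0.53, among them RPL4 (-0.63), RPL15 (-0.65), RPL21C (-0.68) and RPL24 (-0.54).

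The small subunit binds the mRNA and reads its codons. All 9 genes for its proteins fell, with a median of -0.70, so that the median signal fell by 38.6%, and with limma adjusted p from 0.00113 to 0.00947. EMB3137 encodes the plastid S13 protein, which in E. coli contacts the tRNA in the head of the subunit. It had 3.69, 3.64 and 3.99 in pgp1-2 and 4.72, 4.70 and 4.60 in WT, a difference of -0.90 (SE 0.11, limma adjusted p = 0.00113). GHS1, for the plastid S21 protein, is known for a mutant whose seedlings are oversensitive to glucose. It had 3.21, 3.34 and 3.62 in pgp1-2 and 4.32, 4.34 and 4.18 in WT, a difference of -0.89 (SE 0.12, limma adjusted p = 0.00165), and its second probe gave -1.03.

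PRPS20, whose E. coli counterpart binds the 16S rRNA, had 3.36, 3.27 and 3.65 in pgp1-2 and 4.22, 4.32 and 4.17 in WT, a difference of -0.81 (limma adjusted p = 0.00212). RPS1, the counterpart of the E. coli protein that draws mRNA to the ribosome, had 2.49, 2.35 and 2.63 in pgp1-2 and 3.41, 3.32 and 3.16 in WT, a difference of -0.81 (limma adjusted p = 0.00147). These 4 genes lay further below WT than any 30S gene that follows, though standard errors near 0.11 leave the order among neighbours unsettled. RPS9 had 3.60, 3.49 and 3.96 in pgp1-2 and 4.25, 4.30 and 4.31 in WT, a difference of -0.60 (limma adjusted p = 0.00947), with the widest spread among mutant arrays of the 30S genes. AT1G64510, without a symbol in the gene table, had 2.88, 2.77 and 2.99 in pgp1-2 and 3.52, 3.44 and 3.36 in WT, a difference of -0.56. In both the groups did not overlap. EMB3113, for the plastid S5 protein, and AT3G13120 stood at -0.70 and -0.63.

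The plastid-specific ribosomal proteins were named as parts of the plastid ribosome that the E. coli ribosome lacks; PSRP2, PSRP3 and PSRP4 belong to the small subunit, PSRP5 and PSRP6 to the large one. All 6 genes fell, with a median of -0.75, so that the median signal fell by 40.5%, and with limma adjusted p from 0.00103 to 0.00818. PSRP6 had 4.66, 4.57 and 4.90 in pgp1-2 and 5.65, 5.54 and 5.40 in WT, a difference of -0.82 (SE 0.11). PSRP5 had 4.05, 4.04 and 4.31 in pgp1-2 and 4.63, 4.65 and 4.53 in WT, a difference of -0.47 (SE 0.096). The largest and the smallest fall of the class were thus both found among proteins of the large subunit, and the groups did not overlap in either.

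PSRP3/1 had 2.32, 2.33 and 2.52 in pgp1-2 and 3.20, 3.33 and 3.00 in WT, a difference of -0.79. PSRP4 had 2.96, 2.90 and 3.11 in pgp1-2 and 3.78, 3.79 and 3.63 in WT, a difference of -0.74. PSRP2 had 3.58, 3.48 and 3.71 in pgp1-2 and 4.18, 4.18 and 4.09 in WT, a difference of -0.56. All 3 small subunit genes were separated between groups. The sixth gene of the class, AT5G24490, had 2.20, 1.86 and 2.25 in pgp1-2 and 2.89, 2.80 and 2.90 in WT, a difference of -0.76 (limma adjusted p = 0.00294), and was one of 2 members whose difference was not larger on slide 1 than on slide 2, PRPL28 being the other.

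The translation factors were less uniform. Of 9 genes, 6 fell and 3 were not called, with a median of -0.50, so that the median signal fell by 29.3%, and a range of -0.74 to -0.06. The 3 elongation factors in the strict sense were lowest in the main test. SCO1 encodes the plastid elongation factor G, which moves the ribosome along the mRNA and whose loss leaves pale cotyledons. It had 2.95, 3.02 and 3.29 in pgp1-2 and 3.92, 3.87 and 3.69 in WT, a difference of -0.74 (SE 0.11, limma adjusted p = 0.00283). RABE1b, the plastid elongation factor Tu that delivers aminoacyl-tRNA, had 5.16, 5.24 and 5.47 in pgp1-2 and 6.14, 6.02 and 5.84 in WT, a difference of -0.71 (SE 0.12, limma adjusted p = 0.00344). Of its 5 probes 4 were called lower when each probe was tested by itself, and the fifth had -0.43 (limma adjusted p = 0.0529 over all probes). Over the alternative settings the difference of RABE1b ran from -0.97 to -0.10, so its place among the factors depended on the processing.

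The gene emb2726, for elongation factor Ts, which recharges factor Tu with GTP, had 3.31, 3.11 and 3.57 in pgp1-2 and 4.06, 4.03 and 3.74 in WT, a difference of -0.61 (SE 0.15, limma adjusted p = 0.0146; 0.0539 without WT replicate 2). FUG1, the plastid initiation factor of the IF2 type, had 1.87, 1.80 and 2.04 in pgp1-2 and 2.54, 2.52 and 2.28 in WT, a difference of -0.54 (limma adjusted p = 0.00641). The groups were apart in both. HCF109, a release factor that ends translation, had 1.5, 1.51 and 1.67 in pgp1-2 and 2.12, 2.12 and 1.94 in WT, a difference of -0.50 (limma adjusted p = 0.00431). AT5G08650, listed as a translation factor without a symbol, had a difference of -0.46 (limma adjusted p = 0.0138), likewise with all mutant arrays below all WT arrays.

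RRF, which splits the ribosome after release so that it can be used again, had 0.89, 0.97 and 1.24 in pgp1-2 and 1.33, 1.48 and 1.26 in WT, a difference of -0.32 with a 95% interval of -0.60 to -0.046. Its limma adjusted p was 0.0543, close to the threshold, and 0.0168 without pgp1-2 replicate 3. AT2G24060 had 0.46, 0.79 and 0.98 in pgp1-2 and 0.92, 1.39 and 1.1 in WT, a difference of -0.39 with an interval of -0.82 to 0.030 (limma adjusted p = 0.104). Its groups overlapped, with 1 mutant array above 1 WT array. AT2G24060 was called with the slide as a block (limma adjusted p = 0.0338). AT3G08740 had 3.25, 3.19 and 3.32 in pgp1-2 and 3.33, 3.33 and 3.27 in WT, a difference of -0.06 with an interval of -0.22 to 0.10 (limma adjusted p = 0.491). Its groups overlapped and its arrays varied little within groups, and the interval leaves out a fall as large as that of any ribosomal protein gene described here.

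The falls were seen on both slides and were larger on slide 1. Within slide 1 all 48 genes were lower in pgp1-2, with a median difference of -0.75, and within slide 2 all 48 were lower, with a median of -0.59. The difference was more negative on slide 1 at 46 of 48 genes, and the median of the factors was -0.67 on slide 1 and -0.44 on slide 2. Across the 48 genes the differences on slide 1 and slide 2, which share no array, had a Pearson r of 0.89 and a Spearman rho of 0.87, and across the 24 large subunit genes the values were 0.93 and 0.92. Genes are not independent replicates and all 48 share the same arrays, so that these values describe how far the order of the members was kept.

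**Figure D2:**
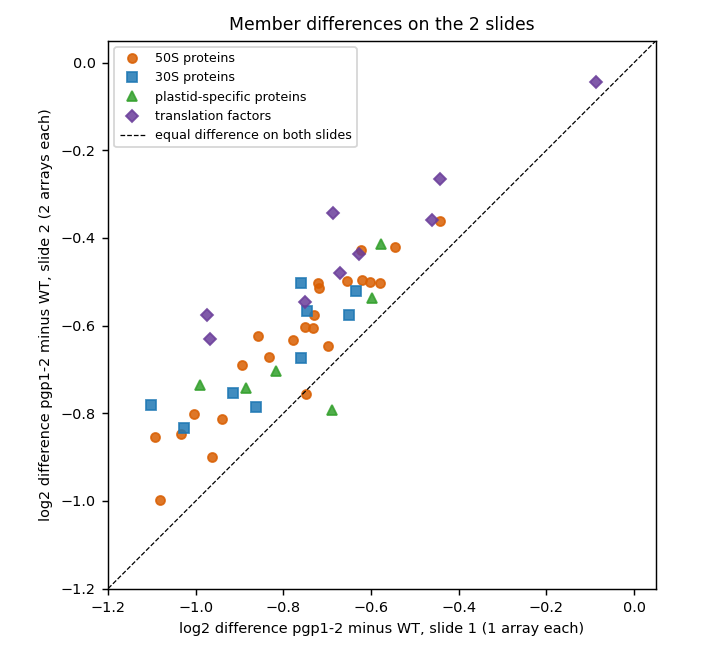
Difference of each of the 48 genes within slide 1 (horizontal axis, 1 pgp1-2 array minus 1 WT array, log2) against that within slide 2 (vertical axis, mean of 2 pgp1-2 arrays minus mean of 2 WT arrays, log2), with symbols by class; the dashed line marks equal differences. All points lie below 0 on both axes, 46 lie above the dashed line, and the order of the genes is similar on both slides (r = 0.89).

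Groupings of the members by annotation had similar differences. The 10 members with an embryo-defective name in the gene table were all called lower, with a median of -0.62 and a range of -0.90 to -0.39, and the other 38 had a median of -0.67. The members are spread over all 5 chromosomes, with medians between -0.76 and -0.60. These groupings were not tested.

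Other genes of plastid translation were looked at for context, from lists written out by locus. Of 7 tested genes for further parts of the machinery, 5 fell and 1 rose, with a median of -0.40 that was 0.011 relative to the spike-in probes. They include PSRP3/2, a related copy of PSRP3/1 whose probe may share signal with it, at -0.40 (limma adjusted p = 0.00527), and APG3, the plastid release factor 1, at -0.41 (limma adjusted p = 0.0193), while pde194 rose by 0.36. Genes for building the ribosome and charging its tRNAs had called members in both directions. Of 19 genes for assembly of the plastid ribosome and processing of its RNA, 3 fell, 6 rose and 10 were not called. Their median was 0.15, and the counts stand beside 24.5% of all genes lower and 27.9% higher. The number that rose was 2 under normexp and under median scaling, 0 with spike-in scaling and 12 when a slide term joined it. In the same order, 2827, 5234, 3493 and 10670 of all 22682 genes were called higher. The DEAD-box RNA helicase gene EMB3108 (RH22) rose by 0.50 (limma adjusted p = 0.0131) and EMB25 (ISE2), also a helicase gene, by 0.49 (limma adjusted p = 0.0113), whereas AT2G17240 had the largest fall, -0.54. Of 19 organellar aminoacyl-tRNA synthetase genes 5 fell, which is near the 24.5% of all genes, 2 rose and 12 were not called. The number that fell was 2 under normexp and with a replicate block, and 0 with spike-in scaling. In the same order, 3876, 5199 and 1088 of all genes were called lower. The median of -0.021 was above 0 under normexp, quantile and spike-in scaling. EMB1030 was at 0.52 and EMB2761 at -0.48.

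Genes for ribosomal proteins of the other compartments had medians above 0. Of 33 tested genes for mitochondrial ribosomal proteins 21 rose, 1 fell and 11 were not called. The median difference was 0.31, and the background was 27.9% of all genes higher. The number higher was 17 to 23 under normexp, median and quantile scaling, where 2827, 5234 and 6666 of all 22682 genes were called higher. With spike-in scaling it was 6, beside 3493 of all genes. When a slide term joined that scaling it was 27, beside 10670 of all genes. One of the 21, RPL3P (0.34), is called a plastid protein in the gene table. HLL, the gene for a mitochondrial L14 protein, rose by 0.83 (limma adjusted p = 0.00537) and AT2G42710 by 0.75 (limma adjusted p = 0.00317), while RPS19 fell by 0.42 on the log2 scale. Of 30 genes for cytosolic ribosomal proteins 10 rose, 1 fell and 19 were not called. The median was 0.092, and the count higher is near the 27.9% of all genes. The number higher was 24 under quantile, 6 under median, 7 under normexp and 1 under spike-in scaling. It was 21 when a slide term joined the spike-in scaling. EMB3010, a copy of the cytosolic S6 gene, rose by 0.56 and RPL3B had a difference of -0.43. The medians of both lists were above 0 under the 75th percentile, median, normexp, quantile and spike-in scaling. The median of all genes was itself above 0 under the 75th percentile (0.034), quantile (0.049) and spike-in (0.45) scaling. Under 75th percentile, median and spike-in scaling the cytosolic median lay only 0.057 above that of all genes, and the mitochondrial median 0.27 above it. These gaps were 0.26 and 0.42 under normexp, and 0.31 and 0.30 under quantile scaling. The median of the 48 plastid genes lay 0.96 below that of the mitochondrial list, a gap that median or spike-in scaling cannot alter, since each shifts a whole array, and that was 0.91 under normexp and 0.73 under quantile normalization. The difference between lists was not tested.

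Relative to the WT mean of each gene, the median of the mitochondrial list was 0.37, 0.31 and 0.21 on pgp1-2 arrays 1, 2 and 3 and -0.027, 0.065 and -0.034 on WT arrays 1, 2 and 3. The same 3 mutant arrays gave -0.71, -0.78 and -0.49 for the plastid 50S genes, against 0.039, 0.038 and -0.077 on the WT arrays. On every mutant array the 2 ribosomes thus stood on opposite sides of the WT level. The pgp1-2 replicate 3 array was the closest to WT in both lists.

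**Figure D3:**
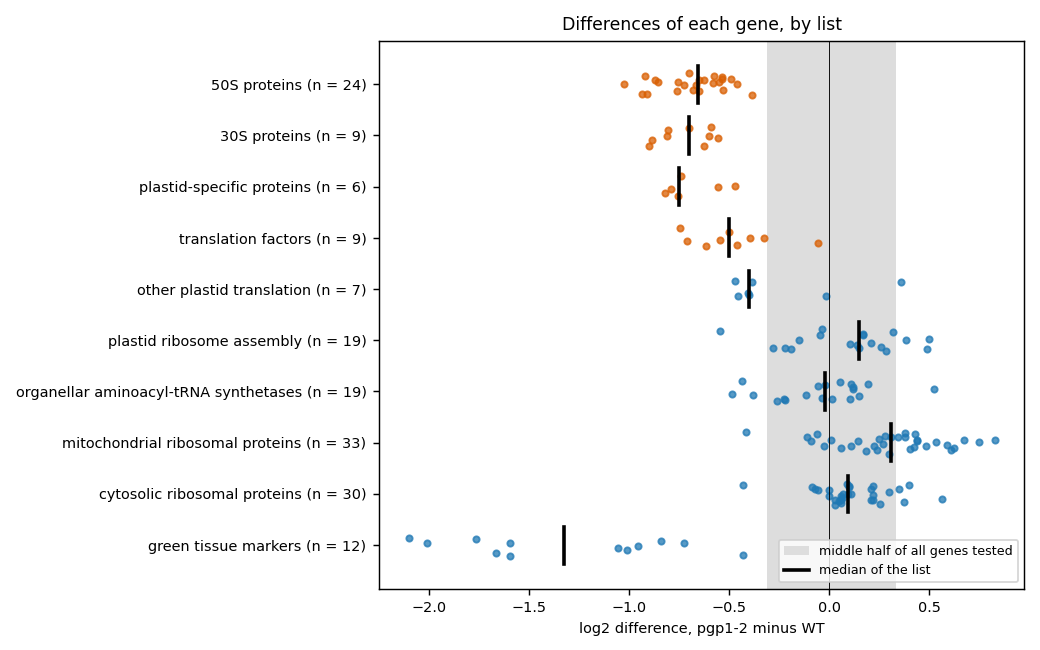
Log2 difference (pgp1-2 minus WT, horizontal axis) of every tested gene of the 4 member classes (orange) and of 6 other lists (blue), with 1 row per list, the number of genes in brackets and a black bar at the list's median; the grey band holds the middle of all genes tested, from the 25th percentile at -0.31 to the 75th at 0.34. The 39 ribosomal protein genes lie left of the band, while the mitochondrial list has its median at 0.31.

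Markers of green tissue and of roots also differed between the groups. All 12 green tissue markers, nuclear photosynthesis genes such as CAB1 and RCA, fell, with a median of -1.33 (11 of 12 were lower under quantile scaling), and their summed signal was 606 to 781 times the 75th percentile on the pgp1-2 arrays and 1340 to 1519 times on the WT arrays. Of 15 root markers 7 were tested, of which 4 fell and 1 rose, with a median of -0.52, and the summed signal of all 15 was 1.57 to 1.62 in pgp1-2 and 1.96 to 2.11 in WT. That median was -0.11 with spike-in scaling. CASP1, for a protein of the Casparian strip of the root endodermis, was among the 4 but well above background on 1 of 3 pgp1-2 arrays, and CASP2 (-0.71) and SHR (-0.52) were also among them. SHV2 rose by 1.70 (SE 0.55, limma adjusted p = 0.0426) but was well above background on only 2 of 3 WT arrays. Its WT signals were -4.98, -6.67 and -4.78, so that the size of this rise is uncertain. SCR (-0.0092) and MYB36 (-0.097) were not called, and SMB and CASP5 were well above background on no array. In whole seedlings fewer cells of a type and less RNA per cell cannot be told apart, and the part of tissue makeup in the falls of the 48 genes was not tested.

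The size of the falls, and whether they were called, rested on how arrays were set level. The 39 ribosomal protein genes were lower in pgp1-2 at 39 of 39 under median, normexp and quantile scaling, with 39, 33 and 30 called by limma. In these scalings 6184, 3876 and 5391 of all 22682 genes were called lower. Levelled on the spike-in probes, 38 of 39 were lower, EMB3126 being at 0.023, with a median of -0.27. None of the 48 genes was called by limma under this scaling, and 0 of 48 had an unadjusted p under 0.05. Of all 22682 genes, 1088 were called lower there. When that scaling was fitted together with a term for the slide, 7 were called: AT1G29070, RPL12-C, RPL27, PRPL35, PRPL11, EMB3137 and GHS1. In that fit 2138 of all 22682 genes were called lower. Under each of these scalings the median of each class was below the median of all genes. For the factors AT3G08740 was at 0.12 under quantile normalization, 0.052 after normexp and 0.35 on the spike-in scale, and AT2G24060 and RRF were at 0.017 and 0.086 on the spike-in scale.

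**Figure D4:**
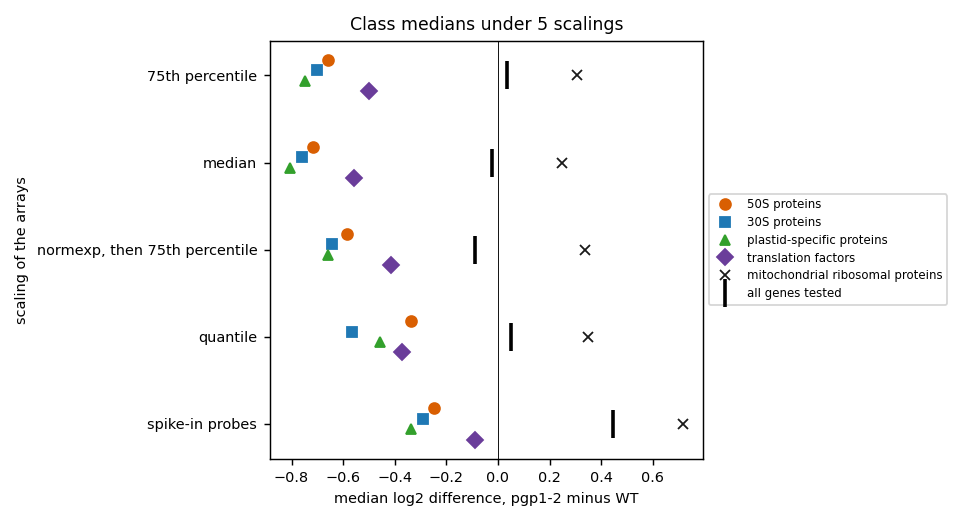
Median log2 difference (pgp1-2 minus WT, horizontal axis) of the 4 member classes, of the mitochondrial ribosomal protein list (cross) and of all genes tested (vertical bar) under 5 ways of scaling the arrays (rows). The class medians lie between -0.81 and -0.090 and left of the bar in every row, and spike-in scaling moves all of them towards higher values together with the bar, which is then at 0.45.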

How the data were processed

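Per the file headers, the arrays were read in 1 channel and their spots quantified by the authors with version 10.7.1.1 of Agilent's Feature Extraction. The deposited intensity values are the processed signal, background-subtracted and detrended within the array, and the raw median signals of spot and background; other columns of the deposited files are flags of 0 or 1. No normalization between arrays is recorded there. Here outlying spots were left out, spots of a probe were averaged, and 34358 of 43603 probes were matched to 25433 loci through the TAIR10.1 gene table; symbols come from it (35 of the 48 members have one). A probe was kept if well above background on all 3 arrays of a group, and the brightest kept probe stood for a gene. Scaling used log2 and the 75th percentile. Tests used limma 3.58.1 in R 4.3.3, two-sided, with Benjamini-Hochberg adjustment over 22682 genes, after a test on simulated data. The number of arrays limits the precision.

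The members and lists were chosen with earlier results of these data known. Per-array values are given in each class for the 4 most and 3 least lowered members, for members not called or with probes that disagree, and for 2 pairs of copies, except that 1 member is counted but not reported here by itself; of the context lists, extremes were named, and other genes were named after their values were seen. The rule also listed promoter motifs; no promoter sequence was used here. Replicate numbers were not taken to pair the arrays in the main test. Arrays sharing a number deviated from their groups with correlations over genes of only 0.081, 0.12 and 0.059. These were nevertheless above the correlations of arrays with different numbers, which ran from -0.14 to 0.039. Alternatives were other background corrections, scalings, filters and probe choices, blocks for slide or replicate number, an intensity trend, and leaving out each array.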

Additional observations from a re-analysis of the deposited data

How the results depend on the processing

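Leaving out 1 array in turn gave 9582 to 11098 called genes, 22 to 24 called large subunit genes, 9 called small subunit genes, 6 called plastid-specific genes and 5 to 7 called factors; the fitted PGP1 difference, no bound, lay between -9.58 and -8.89. Under normexp 6703 genes and 3 factors were called, these factors lower. Relative to the spike-in probes 4581 genes were called by limma, with 0 genes in each of the 4 classes. With a slide term besides, 2138 of all 22682 genes were called lower. Among them were 5 large subunit, 2 small subunit, 0 plastid-specific and 0 factor genes, and 10 of the 48 had an unadjusted p under 0.05. EMB3126 changed sign to 0.023 in both of these settings. Apart from the spike-in scaling, no alternative run gave a called member another sign, and 30 of the 45 called members were called in the main test, under normexp and under quantile normalization alike; why the scalings differ was not tested. A replicate block gave 11016 called genes and called 24, 9, 6 and 6 members of the 4 classes. The filter requiring all 6 arrays removed PGP1.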
